A study of Rattus norvegicus with 24 samples.

Results

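Slc7a11, Chac1 and Hmox1 are 3 genes of cystine import, glutathione breakdown and heme breakdown, followed here through 6 culture conditions of rat oligodendroglia. They were taken from the count files by identifier, as ENSRNOG00000010210, ENSRNOG00000014387 and ENSRNOG00000014117, and are 3 of the 32883 genes listed. They were chosen by their counts in oligodendrocytes (OLs) exposed to dolutegravir (DTG), an HIV integrase inhibitor, against OLs given its solvent DMSO. Every value of the 3 genes that uses those 2 groups is therefore a description here and carries no p-value.

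The cells were primary oligodendrocyte precursor cells (OPCs) shaken off mixed glial cultures of newborn Sprague Dawley rat cortex, with no genetic change in any group. OPCs were collected after 24 hours in proliferation medium with no addition, with 0.04% DMSO, or with DTG at 8 µM. OL cultures went through the same 24 hours plus 72 hours in differentiation medium, again untreated, with 0.04% DMSO throughout, or with 8 µM DTG throughout. Each of the 6 groups had 4 libraries, from cultures of separate litters according to the methods. These are bulk cultures, so fewer cells of a type and less RNA per cell cannot be told apart.

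Slc7a11 encodes xCT, the transport subunit of the exchanger that brings cystine into the cell and sends glutamate out; cystine is reduced to cysteine, the scarce building block of the antioxidant glutathione. Chac1 encodes a cytosolic enzyme that cleaves glutathione, and Hmox1 encodes heme oxygenase 1, which opens heme and releases iron. ATF4, the transcription factor of the integrated stress response, is known to drive Slc7a11 and Chac1, and NRF2, the factor of the antioxidant response, is known to drive Slc7a11 and Hmox1. Developing oligodendroglia are known to hold little glutathione and to be sensitive to its loss.

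The sequences around the starts of Slc7a11 and Chac1 are shown because these factors are known to act through such regions. RefSeq's promoter table (GRCr8 build) held 2 of the 3 genes, and Hmox1 is named only. Each entry runs from 250 bases before to 50 bases after the annotated start and is printed 5′ to 3′ on the gene's strand. Slc7a11 lies on the minus strand at chr2:136668215-136668514 and Chac1 on the plus strand at chr3:126795881-126796180. Capitals mark a match to any of the motifs searched.
Slc7a11: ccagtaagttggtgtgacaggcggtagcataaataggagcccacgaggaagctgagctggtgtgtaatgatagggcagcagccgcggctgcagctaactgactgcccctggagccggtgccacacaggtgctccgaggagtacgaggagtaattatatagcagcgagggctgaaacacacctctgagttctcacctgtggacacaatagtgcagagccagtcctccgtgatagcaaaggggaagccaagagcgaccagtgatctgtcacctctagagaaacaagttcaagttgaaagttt
Chac1: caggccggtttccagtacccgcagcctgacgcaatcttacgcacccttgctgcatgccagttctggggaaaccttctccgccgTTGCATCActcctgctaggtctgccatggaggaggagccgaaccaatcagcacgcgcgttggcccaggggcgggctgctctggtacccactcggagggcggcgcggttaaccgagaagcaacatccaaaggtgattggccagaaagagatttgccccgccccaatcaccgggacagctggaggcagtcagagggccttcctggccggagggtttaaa
Both strands were searched for TGATGNAA, the core of the C/EBP-ATF response element, for TGACNNNGC, the core of the antioxidant response element, and for the cyclic AMP response element TGACGTCA. Chac1 held 1 match, TTGCATCA, which is TGATGNAA on the opposite strand, at positions -167 to -160 from the start (position 0 is the first transcribed base). TGATGNAA was found in 3.98% of the 33469 promoters of the table, TGACNNNGC in 12.1% and TGACGTCA in 1.83%. The Slc7a11 window held none of these letters, and this says nothing about sites elsewhere. The G and C share was 61.7% in the Chac1 window and 53.3% in the Slc7a11 window, against a median of 51.7% over all promoters.

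In the count files Slc7a11 lies on chromosome 2 from 139453774 to 139528162 on the minus strand, with 8894 exonic bases. Chac1 lies on chromosome 3 from 111160205 to 111163425 on the plus strand, with 1569 exonic bases, and Hmox1 on chromosome 19 from 14508616 to 14515456 on the plus strand, with 1566. The submitters' processing notes name the build Rnor_6.0. Libraries held 13241279 to 18499994 counts on genes. Slc7a11 had the lowest range of the 3, with 31 to 616 counts per library, Chac1 had 81 to 2204 and Hmox1 326 to 5413. In some OPC libraries Slc7a11 had more counts than Chac1, as in DMSO replicate 3 (189 and 82) and DTG replicate 2 (250 and 123). The files of untreated OPCs and untreated OLs of replicate 3 were counted on another gene annotation, in which Slc7a11 has 4509 exonic bases. Its last gene on chromosome 1 ends at 260398790, against 282724300 in the other files, so it appears to be of another genome build. These 2 libraries were therefore left out of the values below. Levels are in CPM, the share of a gene in its library after TMM scaling over the other 22 libraries.

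Of the cell-type marker lists, 2 of 6 OPC markers and 2 of 9 OL markers could be named. Symbols came from the study's lists of changed genes, so these markers were likely to differ and do not test the labels. The OPC markers Pdgfra and Cspg4 were lower in untreated OLs than in untreated OPCs (log2 fold changes -1.38 and -2.57, adjusted p = 0.00766 and 7.8e-05). The myelin genes Mbp and Mog were higher (4.73 and 3.20, adjusted p = 3.33e-05 and 7.7e-06, all by the quasi-likelihood test of edgeR). In OPCs, the DTG library of replicate 2 did not deviate from its group mean together with the DMSO library of the same number (r = -0.08 across genes), whereas the other numbers gave 0.73, 0.59 and 0.82. OPC results are therefore also given without replicate 2.

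Per kilobase of exon, Hmox1 was the most abundant of the 3 in every group and Slc7a11 the least. In DMSO-treated OPCs the mean levels were 26.5 ± 10.4 CPM per kilobase for Hmox1, 4.73 ± 1.93 for Chac1 and 0.595 ± 0.345 for Slc7a11 (SD, n = 4). In DTG-treated OLs they were 174 ± 70.9, 84.4 ± 15.1 and 3.65 ± 0.755 (SD, n = 4).

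**Figure D1:**
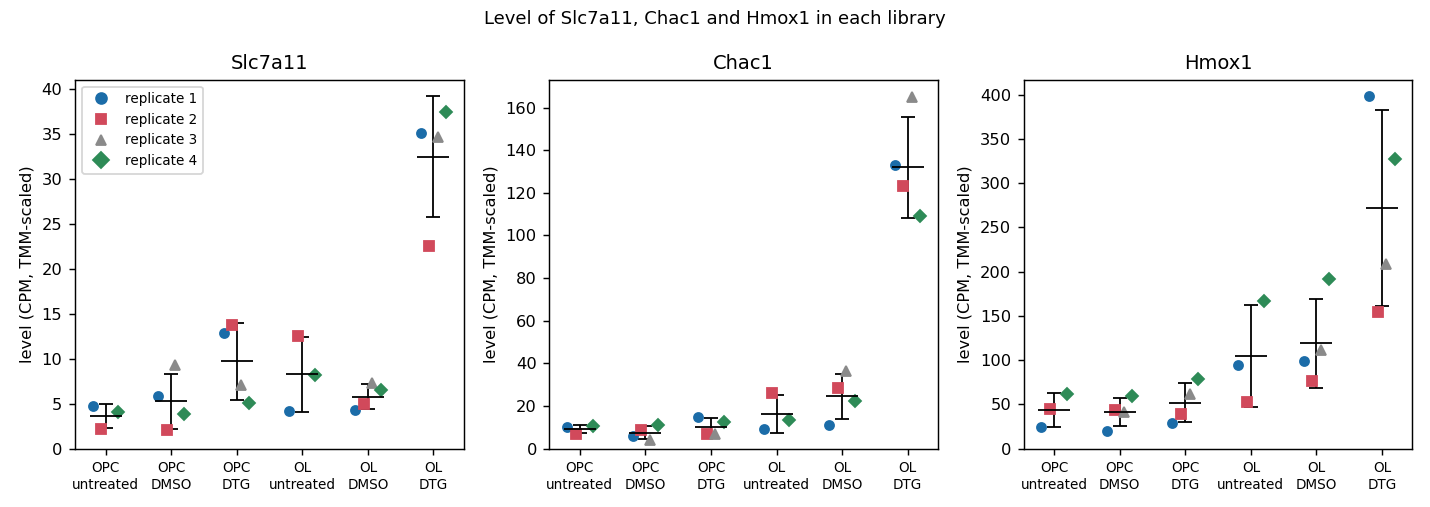
Level of each gene in CPM (linear axis from 0) in the 22 libraries of one annotation, by group. Points are libraries, with colour and shape for the replicate number, and bars are the mean and SD (n = 3 for untreated, 4 for other groups). All 4 DTG-treated OL libraries lie above every other library for Slc7a11 (22.6 to 37.5 CPM) and Chac1 (109 to 165 CPM), while for Hmox1 (154 to 398 CPM) they overlap DMSO-treated OLs.

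In OLs, all 3 genes were higher with DTG than with DMSO in 4 of 4 replicate pairs, the pattern for which they were picked. Slc7a11, the cystine importer, was at 35.2, 22.6, 34.7 and 37.5 CPM with DTG in replicates 1 to 4. With DMSO it was at 4.33, 4.93, 7.29 and 6.58 CPM. The groups did not overlap, and the lowest DTG library was replicate 2. The fitted log2 fold change was 2.48 (standard error, SE, 0.22), or 5.59-fold, and the ratio within a replicate number ran from 4.59 to 8.14.

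Chac1, the enzyme that cleaves glutathione, was at 133, 123, 165 and 109 CPM in DTG-treated OLs. It was at 11.3, 28.3, 36.5 and 22.4 CPM in DMSO-treated OLs. The groups again did not overlap, and the DMSO library of replicate 1 was the lowest of its group. Its log2 fold change was 2.43 (SE 0.28), with ratios of 4.34 to 4.89 in replicates 2 to 4 and 11.8 in replicate 1.

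Hmox1, the heme-degrading enzyme, was at 398, 154, 209 and 327 CPM in DTG-treated OLs. In DMSO-treated OLs it was at 98.8, 76.0, 111 and 192 CPM. The groups overlapped, since DMSO replicate 4 was above DTG replicate 2, yet each DTG library was above its own DMSO pair. The log2 fold change was 1.17 (SE 0.31), with ratios of 1.71 to 2.02 in replicates 2 to 4 and 4.03 in replicate 1. Replicate 1 thus gave the highest ratio for each of the 3 genes.

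Over all genes, 71 of 12710 were called in this comparison, 0.559%, and 45 were called higher, 0.354%, and 26 lower, 0.205%. A call here is an adjusted p-value under 0.05 with an absolute log2 fold change over 1, and no call is read from this comparison for the 3 genes. The count was 168 genes with the replicate number as a block, 127 with DESeq2's Wald test (76 higher, 51 lower), 29 without DMSO replicate 2 and 46 without DTG replicate 3. With ERCC scaling it was 17, of which 16 were higher and 1 lower. Scaled to the ERCC spike-in counts in place of TMM, the log2 fold changes were 3.08, 3.07 and 1.72 for Slc7a11, Chac1 and Hmox1, while the median over all genes moved to 0.44. Other measures moved with DTG in the same libraries. The mitochondrial share of counts was 3.96% to 5.70% in DTG-treated OLs and 2.04% to 2.55% in DMSO-treated OLs. Mog was called lower with DTG (log2 fold change -1.01, edgeR, adjusted p = 0.0116), and was not called with ERCC scaling (-0.58, adjusted p = 0.831). Mbp was at -1.40 (adjusted p = 0.0772) and was called with the replicate block (-1.41). The part of these in the values of the 3 genes was not tested.

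**Figure D2:**
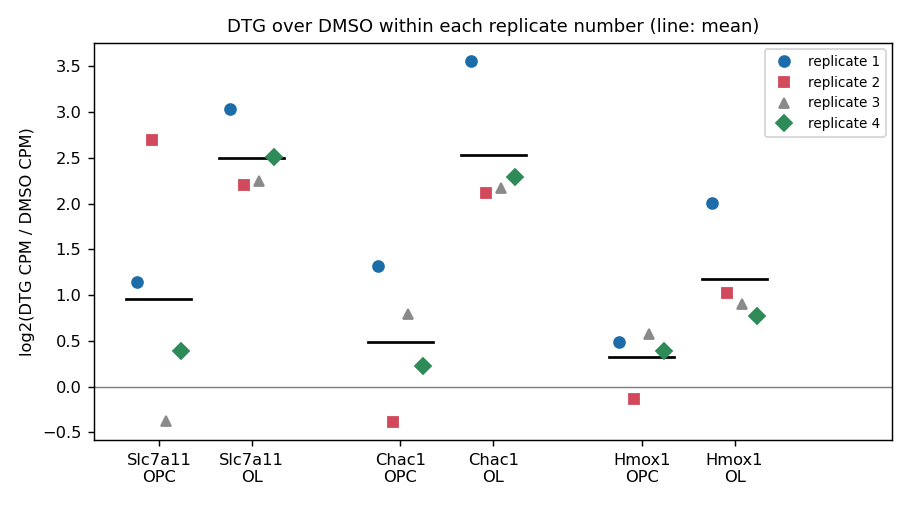
Log2 ratio of the CPM with DTG to the CPM with DMSO within each replicate number, for OPCs and OLs. Points are the 4 replicate numbers and the horizontal line is their mean; all 12 OL ratios are above 0, and 1 OPC ratio of each gene is below 0.

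In OPCs exposed to the same 8 µM DTG for 24 hours, none of the 3 genes passed the test. Slc7a11 was at 12.9, 13.8, 7.14 and 5.11 CPM with DTG and at 5.83, 2.13, 9.29 and 3.91 CPM with DMSO in replicates 1 to 4. The groups overlapped, and DTG was higher in 3 of 4 pairs. This was a log2 fold change of 0.87 (edgeR, SE 0.47, adjusted p = 0.906). The pair of replicate 2 gave the largest ratio, 6.48, and the pair of replicate 3 was reversed, at 0.768. Across genes, DTG replicate 2 deviated most like DMSO replicate 3 (r = 0.74), so both ratios are uncertain. Without replicate 2 in both groups the log2 fold change was 0.39 (SE 0.46), and without DMSO replicate 3 it was 1.29 (SE 0.46, adjusted p = 0.488).

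Chac1 was at 14.9, 6.77, 6.97 and 12.6 CPM in DTG-treated OPCs and at 5.96, 8.84, 4.03 and 10.9 CPM in DMSO-treated OPCs. DTG was higher in 3 of 4 pairs, with replicate 2 the exception. In the fit this gave 0.48 on the log2 scale (edgeR, SE 0.37, adjusted p = 0.906), and 0.73 (SE 0.45) without replicate 2.

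Hmox1 was at 28.8, 39.7, 61.8 and 78.5 CPM in DTG-treated OPCs and at 20.4, 43.9, 41.6 and 60.0 CPM in DMSO-treated OPCs. Replicate 1 was lowest and replicate 4 highest under both treatments. The fitted difference was 0.34 on the log2 scale (edgeR, SE 0.37, adjusted p = 0.906), and 0.47 (SE 0.46) without replicate 2, with 3 of 4 pairs higher. Over all genes 0 of 13270 were called by edgeR (0%) and 0 by DESeq2's Wald test. At an unadjusted p-value under 0.05 there were 66 and 63 genes, fewer than that threshold gives where no gene differs. These fits were thus conservative, and their lack of calls does not show that nothing changed. The count was 889 with the replicate block in edgeR, still with 0 genes called. With the replicate block the log2 fold changes were 0.91, 0.49 and 0.33 for Slc7a11, Chac1 and Hmox1, each with an adjusted p of 0.503 (edgeR). With the block and without replicate 2, a setting added after seeing the data, they were 0.37 (SE 0.24), 0.76 (SE 0.21) and 0.48 (SE 0.12). Each then had an adjusted p of 0.946 (edgeR). With ERCC scaling the log2 fold changes of Slc7a11, Chac1 and Hmox1 were 0.915 (SE 0.726), 0.969 (SE 0.438) and 0.747 (SE 0.499). Each had an adjusted p of 0.877 (edgeR), while the median over all genes moved to 0.312.

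Set side by side per replicate number, the log2 ratio of DTG to DMSO was larger in OLs than in OPCs for Chac1 in 4 of 4 numbers, by 1.38 to 2.51. For Hmox1 it was larger in 4 of 4, by 0.33 to 1.52. For Slc7a11 it was larger in 3 of 4, with a mean difference of 1.54 ± 1.39 (SD, n = 4), and replicate 2 went the other way by -0.49. The OPC pair of replicate 2 did not deviate together across genes (r = -0.08), nor did the OL pair of replicate 4 (r = 0). Ratios within these pairs are therefore uncertain, as is that of OPC replicate 3, whose DMSO library deviated most like DTG replicate 2 (r = 0.74). The OL ratios are those that chose the genes, so these differences were not tested.

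Differentiation without treatment is the comparison of the stages that uses none of the libraries that chose the genes. Hmox1 was called higher in untreated OLs than in untreated OPCs, and Slc7a11 and Chac1 were not called. Hmox1 was at 94.7, 53.3 and 167 CPM in untreated OLs of replicates 1, 2 and 4 and at 24.2, 44.8 and 61.8 CPM in untreated OPCs. It was higher in 3 of 3 pairs, although OL replicate 2 was below OPC replicate 4. Same-numbered untreated libraries of the stages hardly deviated together (r = 0.14, 0.02 and 0.04 across genes). Counts and ratios within these pairs are therefore uncertain for each gene. The log2 fold change of Hmox1 came to 1.27 (edgeR, SE 0.41, adjusted p = 0.0328). In this comparison 2974 of 13110 genes were called, 22.7%, with 10.9% called higher and 11.7% lower, so a call is common here. The Hmox1 call was lost in 4 of 6 fits that left out a library. Its log2 fold change was 0.98 without OPC replicate 1 (adjusted p = 0.0989) and 0.78 without OL replicate 4 (adjusted p = 0.126). It was 1.29 without OPC replicate 2 (adjusted p = 0.0641) and 1.33 without OL replicate 1 (adjusted p = 0.0501), no smaller than with all libraries. The call was also lost with ERCC scaling (1.04, adjusted p = 0.217, all edgeR).

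Slc7a11 was at 4.17, 12.5 and 8.21 CPM in untreated OLs and at 4.74, 2.20 and 4.07 CPM in untreated OPCs. Replicate 1 was at nearly the same level in both stages, and replicate 2 differed 5.70-fold. The fit gave a log2 difference of 1.16 (edgeR, SE 0.42, adjusted p = 0.0531). It passed with DESeq2's Wald test (adjusted p = 0.0184), without a filter on low counts (adjusted p = 0.0156, edgeR) and without OL replicate 1 (log2 fold change 1.48, adjusted p = 0.0165, edgeR). The difference fell to 0.77 without OL replicate 2 (adjusted p = 0.183, edgeR). With ERCC scaling it was 0.56 (adjusted p = 0.598, edgeR), while the median over all genes moved to -0.53.

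Chac1 was at 9.36, 26.2 and 13.3 CPM in untreated OLs and at 9.99, 6.91 and 10.8 CPM in untreated OPCs. The groups overlapped and 2 of 3 pairs were higher in OLs, with replicate 2 the largest at 3.80-fold. The fit gave a log2 difference of 0.81 (edgeR, SE 0.36, adjusted p = 0.103). It passed when all 4 untreated libraries per stage were used on shared identifiers (1.30, adjusted p = 0.0386, edgeR) and without OL replicate 1 (1.08, adjusted p = 0.0353, edgeR). The difference fell to 0.31 without OL replicate 2 (adjusted p = 0.427, edgeR) and to 0.14 with ERCC scaling (adjusted p = 0.899, edgeR).

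The same step under DMSO and under DTG shares libraries with the comparison that chose the genes and is given as values. From DMSO-treated OPCs to DMSO-treated OLs the log2 fold change was 0.14 (SE 0.39) for Slc7a11, 1.75 (SE 0.38) for Chac1 and 1.54 (SE 0.33) for Hmox1. From DTG-treated OPCs to DTG-treated OLs it was 1.73 (SE 0.32), 3.68 (SE 0.29) and 2.38 (SE 0.35). Chac1 and Hmox1 were higher in OLs in 4 of 4 pairs under both treatments, whereas Slc7a11 was higher in 2 of 4 pairs under DMSO and in 4 of 4 under DTG.

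DMSO itself was compared with no treatment in OPCs, and none of the 3 genes was called. The log2 fold change was 0.58 (SE 0.50) for Slc7a11, -0.30 (SE 0.35) for Chac1 and -0.04 (SE 0.39) for Hmox1, with adjusted p of 1 each (edgeR). The highest DMSO library for Slc7a11 was replicate 3, at 9.29 CPM, which has no untreated partner among these libraries. Within the 3 shared numbers DMSO was 0.96 to 1.23 times the untreated level. Over all genes 0 of 13244 were called by edgeR (0%) and by DESeq2, and 3 were called with the replicate block. Genes at an unadjusted p-value under 0.05 numbered 78 and 123, and 323 with the block. These too are fewer than that threshold gives where no gene differs. In OLs, where the DMSO libraries are among those that chose the genes, DMSO against no treatment gave -0.55 (SE 0.34), 0.57 (SE 0.39) and 0.16 (SE 0.36) for Slc7a11, Chac1 and Hmox1. DTG against no treatment in OLs gave 1.98 (SE 0.33), 3.04 (SE 0.33) and 1.38 (SE 0.39), higher in 3 of 3 pairs for each gene.

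**Figure D3:**
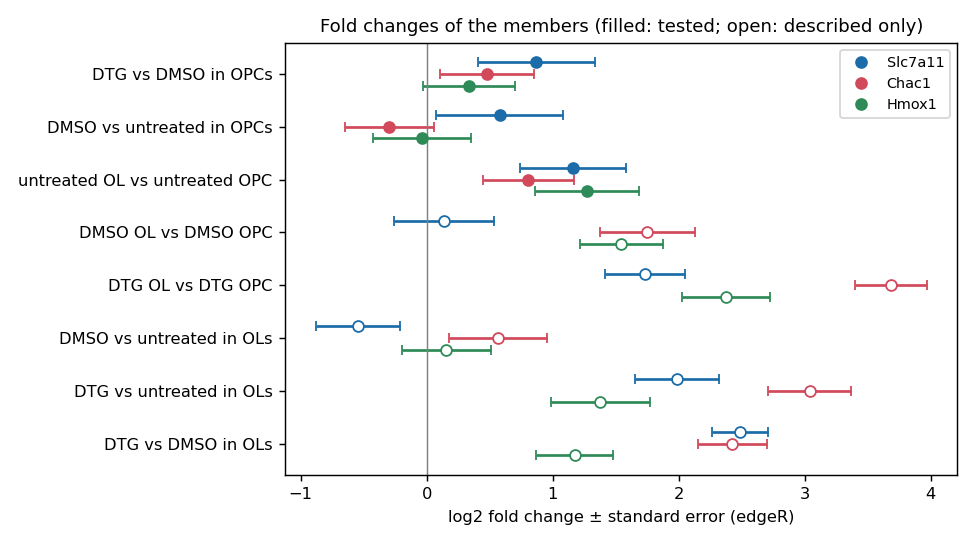
Log2 fold changes of the 3 genes in 8 comparisons, with standard errors from edgeR. Filled points are comparisons that were tested and open points those described only, because they use libraries that chose the genes. The largest is Chac1 from DTG-treated OPCs to DTG-treated OLs (3.68).

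Ordered by mean level, DTG-treated OLs came first for each gene, and the order below them differed by gene. Slc7a11 had 32.5 ± 6.72 CPM there and 9.72 ± 4.24 CPM in DTG-treated OPCs, which came next (SD, n = 4). There followed untreated OLs at 8.3 ± 4.18 (SD, n = 3), DMSO-treated OLs at 5.78 ± 1.39, DMSO-treated OPCs at 5.29 ± 3.07 (SD, n = 4) and untreated OPCs at 3.67 ± 1.32 (SD, n = 3). Below the first step, no neighbours in the Slc7a11 order differed by more than the larger of their SDs.

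For Chac1 the order was DTG-treated OLs at 132 ± 23.6 CPM, DMSO-treated OLs at 24.6 ± 10.6 (SD, n = 4), untreated OLs at 16.3 ± 8.82 (SD, n = 3), DTG-treated OPCs at 10.3 ± 4.09 (SD, n = 4), untreated OPCs at 9.24 ± 2.06 (SD, n = 3) and DMSO-treated OPCs at 7.43 ± 3.03 (SD, n = 4). The step from the first to the next was 5.37-fold and its ranges did not overlap, while the later neighbours differed by less than their SD. Hmox1 had the same order from 272 ± 111 CPM in DTG-treated OLs through 119 ± 50.3 in DMSO-treated OLs (SD, n = 4) to 41.5 ± 16.2 CPM in DMSO-treated OPCs. Its first step, 2.29-fold, exceeded the larger SD but its ranges overlapped, and each later step was within the SD.

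Across the 22 libraries the log2 levels of the 3 genes moved together to differing degrees. Pearson's r was 0.76 for Slc7a11 with Chac1, 0.78 for Chac1 with Hmox1 and 0.57 for Slc7a11 with Hmox1. Within the 11 OL libraries these were 0.92, 0.63 and 0.70. The libraries share groups and scaling, and same-numbered libraries share a date in their names, so these are descriptions. Both sets of libraries hold the DTG-treated and DMSO-treated OLs that chose the genes, so r also reflects that difference. Names came only from the study's lists of changed genes, so the neighbours named below were limited to such genes. Among genes that could be named, those closest to Slc7a11 in the OL libraries were Gbp5 (r = 0.96), the cationic amino acid transporter Slc7a1 (0.95) and asparagine synthetase Asns (0.94). Closest to Chac1 were Eif4ebp1, which encodes a repressor of cap-dependent translation, Slc7a5, a subunit of the large neutral amino acid exchanger, and the stress cytokine Gdf15, each at 0.99. Closest to Hmox1 were the collagen gene Col4a1 (0.94), Rwdd2a (0.93) and Cth (0.90), which encodes cystathionine gamma-lyase, the enzyme that makes cysteine from cystathionine. Over all 22 libraries the leading names were Nmnat3 (0.84), Asns (0.83) and Atf4 (0.81) for Slc7a11, Atf5 (0.93), Creb3l1 (0.93) and Pck2 (0.92) for Chac1, and Pde9a (0.90), Mt-nd3 (0.89) and Atf5 (0.88) for Hmox1. Some unnamed genes ranked higher, and Pde9a was at rank 23 of 12572 genes.

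The neighbours of the 3 genes in the same pathways could be followed only in part, because 2107 identifiers carry a symbol and those symbols come from the study's own lists of changed genes. For cystine and cysteine supply 1 other gene of the list was named, Cth, at 8.18 ± 3.27 CPM in OLs with DTG and 3.51 ± 1.57 with DMSO (SD, n = 4). In edgeR it differed by 1.22 on the log2 scale (SE 0.35, adjusted p = 0.136). For glutathione synthesis the named gene was Gclm, the modifier subunit of glutamate-cysteine ligase, at 29.5 ± 7.78 and 19.1 ± 4.86 CPM (SD, n = 4), a log2 difference of 0.61 (edgeR, SE 0.23, adjusted p = 0.268). Neither was called in this fit, while Cth was called with the replicate block (1.21, adjusted p = 0.00629, edgeR) and with DESeq2 (1.21, adjusted p = 0.0267). With the block Gclm was at 0.61 (adjusted p = 0.0447), short of the fold threshold. In OPCs the 2 genes were at 0.56 and 0.35 (adjusted p = 0.906 each, edgeR).

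Of the NRF2 list, Gclm, thioredoxin Txn1 and the repressor Bach1 were the named genes besides Slc7a11 and Hmox1. In OLs with DTG, Txn1 was at 0.59 (adjusted p = 0.404, edgeR) and Bach1 at 0.26 (adjusted p = 0.804). With 0.559% of all genes called there, a count of 0 in 3 is near that share, and the other genes of the list could not be named. The median of the 3 was 0.59 against 0.01 over all genes, and with the block Txn1 was at 0.53 (adjusted p = 0.0241), short of the fold threshold. In untreated differentiation Txn1 was called lower, at -2.03 (adjusted p = 0.00202, edgeR), and Gclm was at -0.96 (adjusted p = 0.0142), short of the fold threshold that it passed with all untreated libraries (-1.30), whereas Hmox1 was called higher. Flvcr1, a heme exporter and the 1 named gene of heme and iron handling besides Hmox1, was at 0.50 with DTG in OLs (adjusted p = 0.599, edgeR). Anpep, an aminopeptidase of the glutathione breakdown list, fell by 2.95 on the log2 scale in untreated differentiation (adjusted p = 0.000626, edgeR) and was too low for a test between the OL treatments. No gene of glutathione use and reduction could be named.

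Of the ATF4 list, 16 genes other than Slc7a11 and Chac1 were named, and 12 of 16 were called higher with DTG in OLs, with a median log2 fold change of 1.53, where 0.354% of all genes were called higher and the median over all genes was 0.01. The count was 5 of 16 with ERCC scaling, and 15 of 16 with the replicate block or with DESeq2, when Cth, Cebpb and Aldh1l2 were added. The study drew attention to this response in these samples, and the list is not independent evidence of its direction. Only 18 of the 27 genes on the list had a symbol, and symbols came from the study's lists of changed genes. A listed gene that the study did not find changed could go uncounted, so the share over all genes is not a like background. Among the genes called higher in OLs were Atf4 itself (1.12, adjusted p = 0.0067), the pseudokinase gene Trib3 (4.08, adjusted p = 0.000588) and the glycoprotein hormone gene Stc2 (2.48, adjusted p = 0.00569, all edgeR). In OPCs 0 of 16 were called by edgeR or DESeq2, as were 0% of all genes, and the median was 0.24. In untreated differentiation 1 of 16 was called higher, Atf3 (1.59, adjusted p = 0.0156), and 1 lower, the mitochondrial folate enzyme gene Mthfd2 (-1.49, adjusted p = 0.00209). With the same limit of naming, these counts are no more than the shares over all genes in this fit, 10.9% called higher and 11.7% lower. The count in either direction depended on the setting. It was 5 of 16 with all untreated libraries, 5 of 16 without OL replicate 2 and 1 of 16 with ERCC scaling. Atf3 was not called with ERCC scaling (1.27, adjusted p = 0.242, edgeR).

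**Figure D4:**
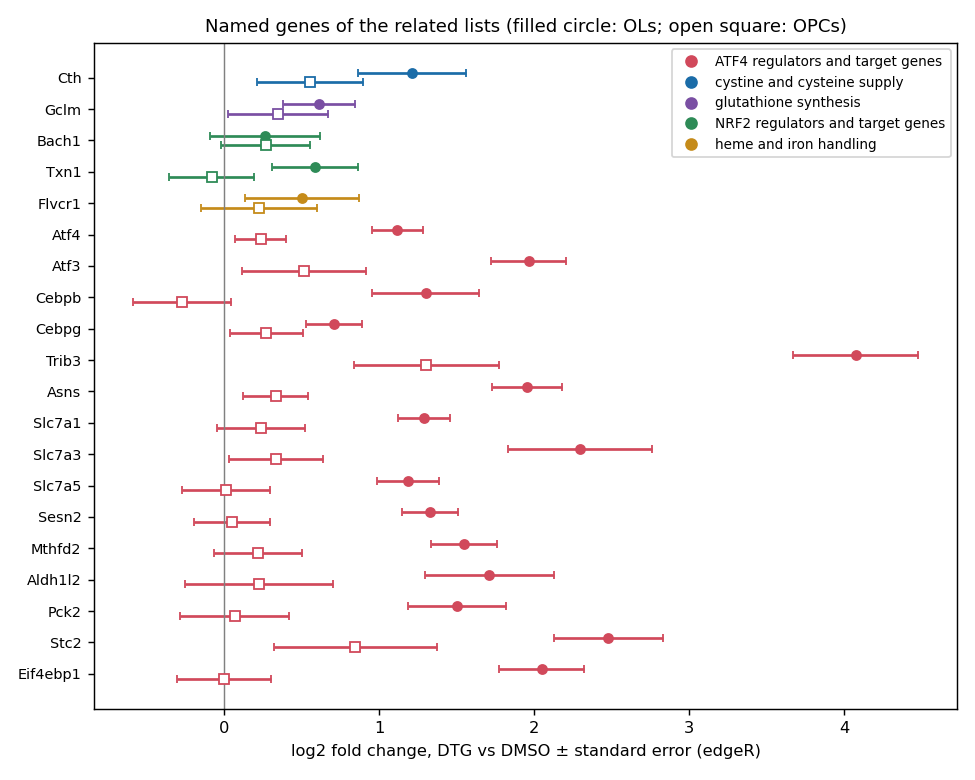
Log2 fold change of DTG against DMSO, with standard errors from edgeR, for the 20 named genes of the related lists. Filled circles are OLs and open squares are OPCs; colour gives the list, and Cth and Gclm are also on the ATF4 and the NRF2 list. Circles of the ATF4 list run from 0.71 (Cebpg) to 4.08 (Trib3), and those of Gclm, Txn1, Bach1 and Flvcr1 from 0.26 to 0.61.

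Hmox1 is also a gene of phagocytes, so markers of other cell types are given beside it. Of the microglia list 1 of 11 markers was named, Cd68, at 1.37 ± 0.564 CPM in untreated OPCs and 0.262 ± 0.2 in untreated OLs (SD, n = 3), where Hmox1 was higher. The log2 fold change of Cd68 was -2.32 (adjusted p = 0.0109, edgeR). In DMSO-treated and DTG-treated OLs it ranged from 0.145 to 0.401 CPM and from 0.365 to 0.608 CPM, too low for a test between these groups. The neuronal genes Snap25 and Stmn2, 2 of 5 on that list, were also lower in untreated OLs than in untreated OPCs (-3.69 and -2.79, adjusted p = 0.000267 and 0.000127, edgeR). These markers too were named from the study's lists of changed genes. No astrocyte, fibroblast or endothelial marker could be named, and the part of such cells in the level of Hmox1 was not tested.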

How the data were processed

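RNA of 24 cultures was sequenced. Per the labels and methods, poly(A) RNA libraries with ERCC spike-ins were demultiplexed with bcl2fastq 2.20, aligned with STAR 2.5.2b and counted with featureCounts (Subread 1.5.2), tools and the build Rnor_6.0 being those of the processing notes. The authors deposited raw counts per gene for each library, without normalization. Whether counting used strand was not given in the sources used here. The untreated files of replicate 3 list 30560 genes of another annotation, 21651 of them shared with the rest, and 20.9% of those with equal length. By their gene coordinates these 2 files appear to be of another build than the rest, although the processing notes name only Rnor_6.0.

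Each comparison was fitted in edgeR 4.0.16 (R 4.3.3, limma 3.58.1) on its own libraries, with filterByExpr, TMM and the quasi-likelihood test without covariates, after ERCC rows were left out. P-values were adjusted by Benjamini-Hochberg over all genes tested. Standard errors were derived from the F statistic. Log levels used a prior count of 2. DESeq2 1.42.0 and the other settings of the closing section were alternatives. The fit was also run on simulated counts of independent libraries with the same dispersion for every gene. That setting lacks the variation shared by same-numbered libraries and cannot test its effect. The spread between libraries holds culture and counting error together, and the latter weighs most for Slc7a11.

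The 3 genes, the pathway and marker lists and the tests were chosen with earlier results of these data known. Genes were named as list members, or as the 3 named genes most correlated with each of the 3; the genes used as cell-type checks are list members too. Symbols came from tables that accompany the study. The authors' fold changes and p-values in those tables were not used. The methods make cultures of independent litters separate replicates, and same-numbered libraries carry a shared date in their names, on which the replicate block rests; whether each number is 1 litter in all groups is not stated. Deviations of same-numbered libraries correlated at 0.73, -0.08, 0.59 and 0.82 (OPCs, DTG and DMSO), 0.43, 0.40, 0.40 and 0 (OLs), 0.14, 0.02 and 0.04 (untreated stages) and 0.78, 0.53 and 0.61 (OPCs, DMSO and untreated).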

Additional observations from a re-analysis of the deposited data

How the results depend on the processing

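Directions of Slc7a11, Chac1 and Hmox1 held in all fits of DTG against DMSO in OLs and OPCs and of untreated differentiation. Leaving out libraries, the log2 fold changes ran from 2.37 to 2.62, 2.19 to 2.67 and 0.93 to 1.51 in DTG-treated OLs, from 0.39 to 1.29, 0.25 to 0.73 and 0.07 to 0.57 in OPCs, and from 0.77 to 1.48, 0.31 to 1.08 and 0.78 to 1.60 in untreated differentiation. For DMSO against untreated OPCs they ran from 0.12 to 0.85, -0.55 to -0.10 and -0.33 to 0.30. Hmox1 there turned positive with ERCC scaling (0.20), without untreated replicate 4 (0.30) and without DMSO replicate 1 (0.19). In untreated differentiation Slc7a11 was called with DESeq2 (1.19) and without a filter (1.17), Chac1 with all untreated libraries (1.30), and Hmox1 was not called with ERCC scaling (1.04). Slc7a11 and Chac1 fell to 0.56 and 0.14 with ERCC scaling in that comparison. ERCC scaling moved Slc7a11 to 3.08 in DTG-treated OLs. Genes called for DTG against DMSO in OLs were 127 with DESeq2, 17 with ERCC scaling, 112 without a filter and 29 to 89 without a library, the lowest without DMSO replicate 2, and 46 without DTG replicate 3. Called ATF4 list genes were 5 with ERCC scaling, 14 without a filter, 15 with DESeq2 or the block, and 9 to 12 without a library. ERCC scaling left 1795 genes called in untreated differentiation, and leaving out a library gave 2629 to 3085. With the replicate block, which treats same-numbered libraries as pairs, 168 genes were called in OLs, 3 for DMSO in OPCs, and 0 for DTG in OPCs; without replicate 2 (added after seeing the data) the block gave 1. The block changed no call of the 3 genes in the tested comparisons (log2 fold change of Hmox1 in untreated differentiation 1.22, adjusted p = 0.00381, edgeR). Group levels moved by more than their SD in 0 of 18 cases with all 24 libraries and in 9 of 18 with ERCC scaling. The cause of these shifts was not tested. Depth limits Slc7a11 most, with 31 counts in its lowest library, and p-values cover the spread between these cultures.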

Other observations

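The 2 libraries on the other annotation were put on the scale of identifiers shared by all 24 libraries. On that scale Slc7a11 was at 4.86 CPM in untreated OPC replicate 3 and 6.29 CPM in untreated OL replicate 3, counted on the shorter gene model. Chac1 was at 4.74 and 32.3 CPM, and Hmox1 at 40.5 and 82.0 CPM. Each of the 3 genes was thus higher in the OL library of this replicate, Chac1 most.

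In OPCs the DTG library of replicate 2 deviated from its group mean most like the DMSO library of replicate 3 (r = 0.74 across genes), against -0.08 for the DMSO library of its own number. Its Slc7a11 level, 13.8 CPM, was the highest of the OPC libraries, and the DMSO library of replicate 3, at 9.29 CPM, was the highest of the DMSO-treated OPCs. No sample was reassigned.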
